A study of Mus musculus with 24 samples.

Results

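The genes considered here are 36 genes of neuroendocrine cells and of the synapse, followed in 24 tumors of the 8 BURP lines, out of 53465 genes in the count table. They cover secretory granules, vesicle release, the antigens used to stain neuroendocrine tumors, 2 transcription factors, the neuronal cytoskeleton, synaptic adhesion, and receptors and channels. Rgs6, Trpa1, Nlgn1 and Nrxn3 were picked because these same counts put them far apart between lines, so their levels are described without a test. The other 32 were chosen for their known roles, although earlier results of these data were known at the time.

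The BURP lines are bladder tumors that male or female C57BL/6NTac mice developed on drinking water with 0.1% of the carcinogen BBN, begun at 8 weeks of age and given for up to 36 weeks. Bladder tumor tissue was carried subcutaneously in immune-competent C57BL/6NTac hosts of the same sex, so each line descends from 1 donor. RNA of 3 tumors per line was sequenced. BURP-19NE, named for the neuroendocrine-like subtype, and BURP-16SR, named for the stroma-rich subtype, came from male mice and 6 basal/squamous (Ba/Sq) lines gave 18 tumors. Female mice were the source of BURP-25BaSq, BURP-24BaSq and BURP-21BaSq, and male mice that of BURP-18BaSq, BURP-17BaSq and BURP-12BaSq. A comparison of BURP-19NE or BURP-16SR with the Ba/Sq tumors is therefore a comparison of 1 donor with 6 donors, and the tumors of a line are passages of the same tumor. Every tumor carried the carcinogen history, and no normal bladder was analysed here.

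Neuroendocrine cells store peptide hormones in dense-core granules and release them with much of the machinery that neurons use at the synapse. There the vesicle protein synaptotagmin and the membrane proteins syntaxin and SNAP25 bring vesicle and cell membrane together when calcium enters through voltage-gated channels. Synaptophysin is another vesicle protein. Across the synaptic cleft, neurexins on the sending cell bind neuroligins on the receiving cell. In the bladder, small cell and other neuroendocrine carcinomas are rare and aggressive, and chromogranin A, synaptophysin, CD56 and INSM1 are the antigens by which pathologists recognise them.

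Levels are given as CPM, counts scaled to the size of each library with TMM factors over all 24 tumors. Totals ran from 9295708 to 25370320 counts per tumor, and 3 counts, taken as the floor, were worth between 0.106 and 1.18 CPM. The BURP-25BaSq line held 2 libraries that stood apart. In replicate 2, 61.9% of the counts fell on 1 ribosomal RNA gene, which left 3725742 counts for all others, and without it the highest floor was 0.412 CPM. Replicate 3 resembled BURP-21BaSq more than its own line, with a correlation across 17022 genes of 0.967 with the mean of BURP-21BaSq and of 0.879 with the mean of the other BURP-25BaSq tumors. Stmn2 was an example among the members, since it was at 10.7 CPM in that tumor, at 17.4 CPM on average in BURP-21BaSq, and at 1.11 and 0 CPM in the other tumors of BURP-25BaSq. Both libraries were kept as labelled. Left out together, they changed neither the 11 members called in BURP-19NE nor the 6 called in BURP-16SR in number.

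The lines matched their names in basal and squamous genes. The summed level of 8 such markers was between 9737 and 22714 CPM in the Ba/Sq tumors, at most 12.3 CPM in BURP-19NE and at most 10.8 CPM in BURP-16SR. Of 6 urothelial markers, mostly uroplakins, the defining genes of the bladder lining, 4 had at most 3 counts in every tumor of BURP-19NE, 3 in BURP-16SR and between 0 and 3 in each Ba/Sq line. The RNA of the diagnostic neuroendocrine antigens was mixed in BURP-19NE, as shown next. Chga, Syp and Insm1 were below 1 CPM in all of its tumors, while Ncam1, which encodes CD56, was high.

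**Figure D1:**
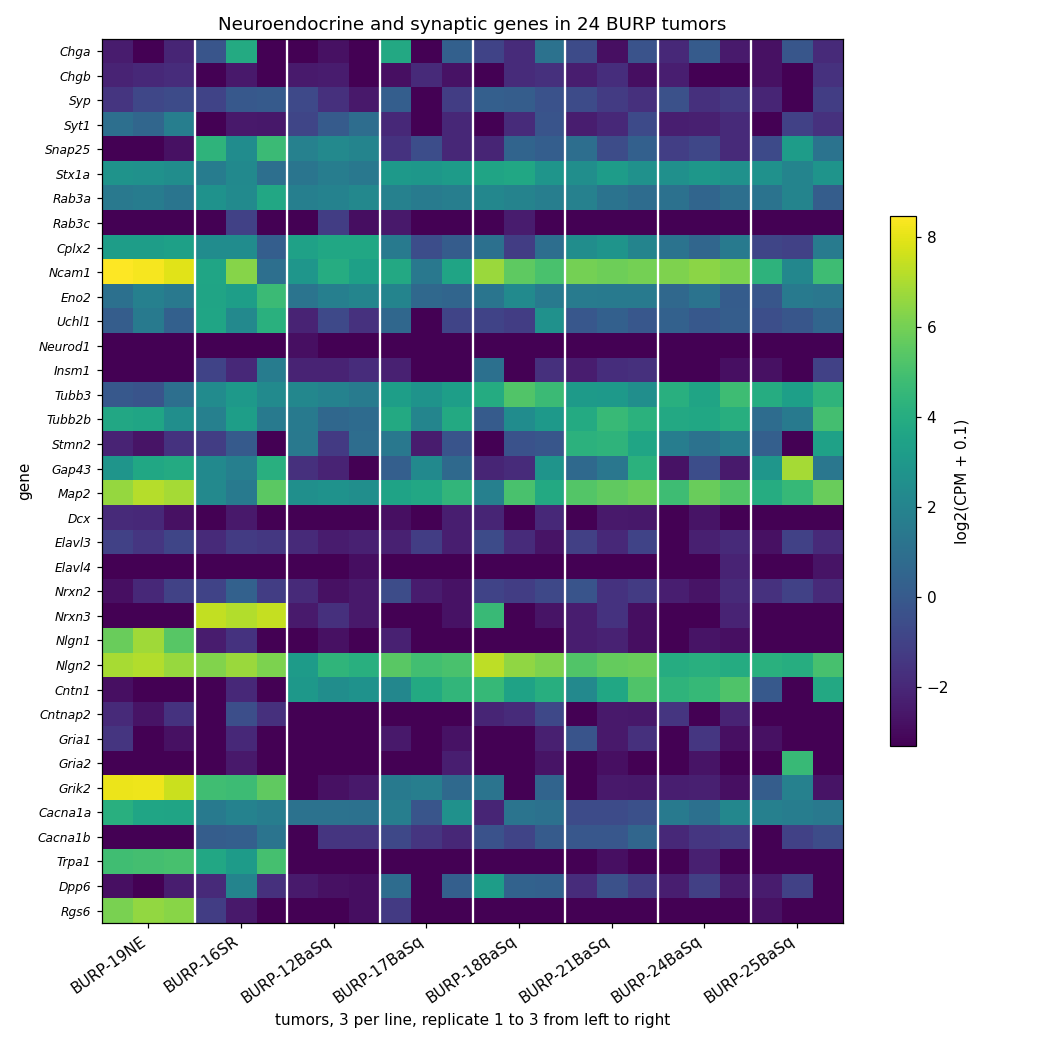
Level of each of the 36 genes (rows) in each of the 24 tumors (columns, 3 per line), as log2 of CPM plus 0.1, with bright colors for high levels. Ncam1, Map2, Nlgn1, Nlgn2, Grik2, Trpa1 and Rgs6 are bright in all BURP-19NE tumors, while Chgb, Neurod1, Dcx and Elavl4 are dark in every line.

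A member was called on in a line when all 3 tumors reached 1 CPM. By that measure 16 of 36 members were on in BURP-19NE, 17 in BURP-16SR and between 9 and 12 in each Ba/Sq line. These counts include picked members, namely Nlgn1, Trpa1 and Rgs6 in BURP-19NE and Nrxn3 and Trpa1 in BURP-16SR. None of the picked members was on in a Ba/Sq line, so the picking itself raised the counts of BURP-19NE and BURP-16SR. The share of all genes that were on in each line was not taken. The genes that were on in all 8 lines were Stx1a, Rab3a, Ncam1, Map2 and Nlgn2. In BURP-19NE but not in BURP-16SR, Syt1, Nlgn1 and Rgs6 were on, and in BURP-16SR but not in BURP-19NE, Snap25, Tubb3, Nrxn3 and Cacna1b were on. A further 13 members were on in no line, among them Chga, Chgb, Syp, Neurod1 and Insm1. Per kilobase of exon, the most abundant members were Ncam1 (35.6 CPM per kb), Nlgn2 (20.8) and Grik2 (19.2) in BURP-19NE, Nlgn2 (14.6), Nrxn3 (12.8) and Uchl1 (7.04) in BURP-16SR, and Tubb3 (7.22), Nlgn2 (7.11) and Gap43 (6.14) in the Ba/Sq tumors.

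In tests across all genes, a gene was called at an edgeR adjusted p under 0.05 and a change of more than 2-fold. Of the 32 members not picked from these counts, 11 were called between BURP-19NE and the Ba/Sq tumors, 6 higher and 5 lower, and 21 passed the filter on low counts. That is 11 of the 21 members tested and 34.4% of all 32, beside 24.3% of all 20995 genes tested in that comparison. Of the latter, 9.33% were called higher and 15.0% lower. Members that did not pass the filter could not be called, so the share of all 32 and the share of genes tested differ in base. Between BURP-16SR and the Ba/Sq tumors 6 of the 32 were called, 5 higher and 1 lower, with 22 passing the filter. That is 6 of the 22 members tested and 18.8% of all 32, beside 19.2% of all genes tested, 10.5% called higher and 8.62% lower. Between BURP-16SR and BURP-19NE 9 were called, 6 higher and 3 lower in BURP-16SR, with 17 passing the filter. That is 9 of the 17 members tested and 28.1% of all 32, beside 23.6% of all genes tested, 14.8% called higher and 8.86% lower. The tumors of the groups did not overlap for 6, 3 and 13 members in these comparisons, against 17.8%, 11.2% and 51.7% of all genes tested. DESeq2 called 27.9%, 21.5% and 26.4% of its genes. These comparisons share their tumors, so their counts are not separate evidence. The median log2 fold change of the members that passed was -0.01 in BURP-19NE and 0.64 in BURP-16SR, against -0.14 and -0.03 over all genes tested.

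With the counts of each line summed, so that a line counted once, 2 members were called in BURP-19NE (Grik2 and Cntn1) and 2 in BURP-16SR (Eno2 and Cntn1). Adjusted p-values of the other members called in these comparisons then lay between 0.0805 and 0.286, and 4.35% and 3.34% of all genes were called. The calls on those other members thus rest on counting each tumor on its own, although the tumors of a line are passages from the same donor. In whole tumors, fewer cells of a type and less RNA per cell cannot be told apart.

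**Figure D2:**
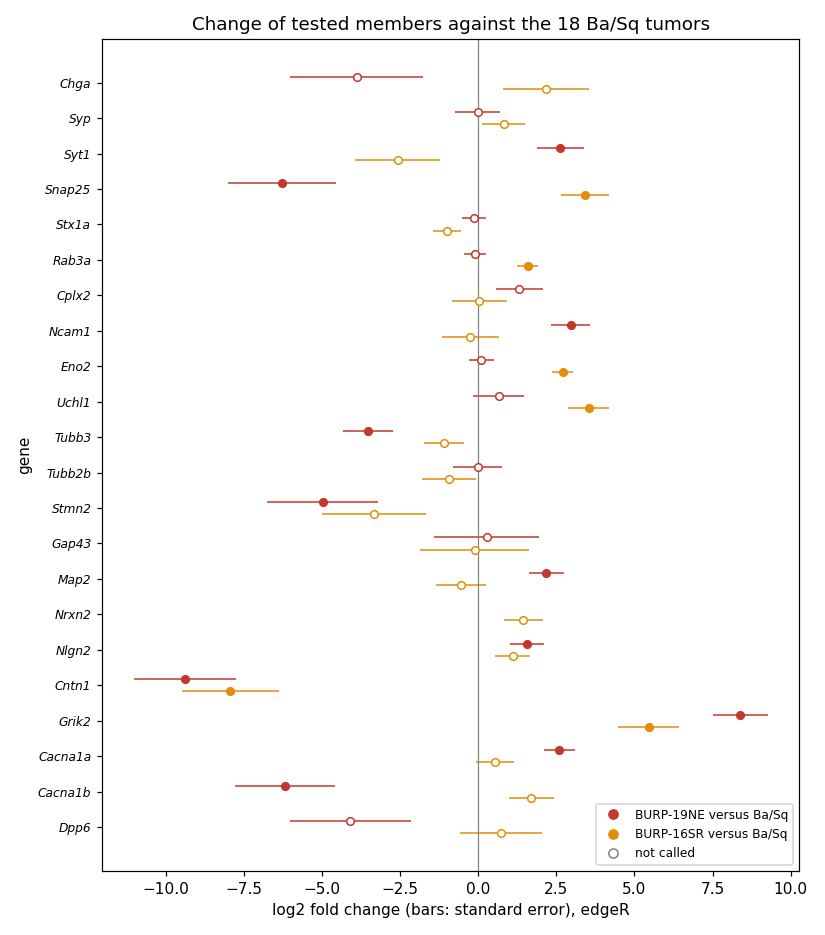
Log2 fold change of the members that passed the filter, without the 4 picked from these counts, in BURP-19NE (red) and BURP-16SR (orange) against the 18 Ba/Sq tumors, with the standard error as a bar. Filled points were called, and among these genes Grik2 stands furthest to the right in both lines, while Cntn1 stands furthest to the left.

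The granule proteins and the neuroendocrine transcription factors were close to the floor. Chga encodes chromogranin A, the bulk protein of secretory granules, and lies on chromosome 12 from 102554969 to 102565028. It was at 0.0841, 0 and 0.136 CPM in the 3 BURP-19NE tumors, from at most 3 counts. In BURP-16SR it was at 0.762, 14.7 and 0 CPM, and in the Ba/Sq tumors the lowest, median and highest levels were 0, 0.17 and 14 CPM. The high values came from 1 tumor each, replicate 2 of BURP-16SR with 190 counts and replicate 1 of BURP-17BaSq with 367 counts. Neither line differed from the Ba/Sq tumors in Chga (adjusted p of 0.164 in BURP-19NE and 0.259 in BURP-16SR), and without replicate 2 the change in BURP-16SR turned from 2.16 to -1.60 on the log2 scale.

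Chgb, its companion chromogranin B, had at most 5 counts in every tumor and was at 0.126, 0.158 and 0.181 CPM in BURP-19NE. Neurod1, a transcription factor of neuronal differentiation, had 1 count in all 24 tumors together. Insm1, the zinc finger factor of endocrine cells used in diagnosis, had 0 counts in all BURP-19NE tumors, while in BURP-16SR it was at 0.423, 0.155 and 3 CPM. That last value rested on 43 counts in replicate 3, and the gene did not pass the filter in any comparison. Syp, which encodes the antigen synaptophysin, had RNA at 0.252, 0.474 and 0.544 CPM in BURP-19NE and at 0.423, 0.85 and 0.908 CPM in BURP-16SR. The Ba/Sq tumors overlapped both, from 0 to 1.1 CPM with a median of 0.323 CPM. No difference in Syp RNA was detectable at this depth (edgeR adjusted p of 0.993 in BURP-19NE and 0.414 in BURP-16SR). By immunostaining, the paper found synaptophysin high in BURP-19NE and BURP-16SR, and protein was not measured here.

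**Figure D3:**
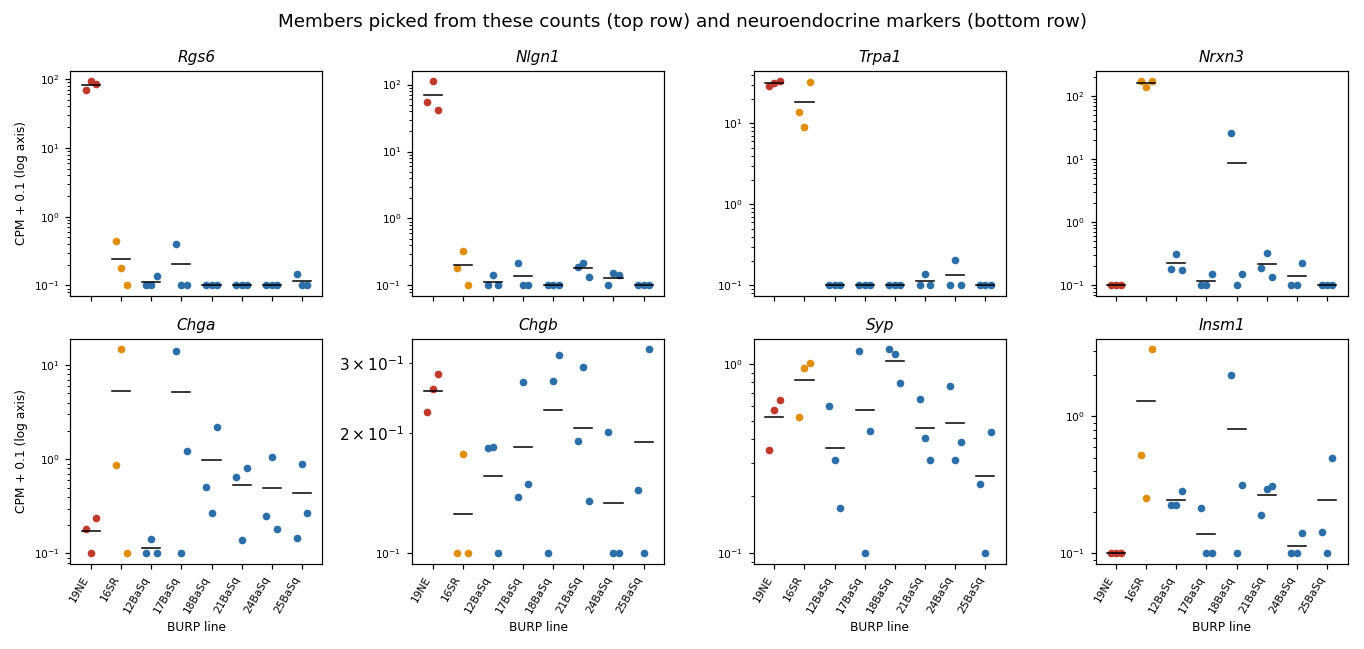
CPM plus 0.1 on a log axis in each tumor (points) with the mean of each line (bars), for the 4 genes picked from these counts (top row) and for Chga, Chgb, Syp and Insm1 (bottom row), with BURP-19NE in red, BURP-16SR in orange and Ba/Sq lines in blue. Rgs6 and Nlgn1 are high only in BURP-19NE among these lines, Nrxn3 in BURP-16SR and in 1 BURP-18BaSq tumor, and Trpa1 in BURP-19NE and BURP-16SR. The RNA of the markers does not separate BURP-19NE.

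The genes of vesicle release split between the lines. Snap25 encodes the SNARE protein of the cell membrane and lies on chromosome 2 from 136713453 to 136782428. It was at 20.1, 5.26 and 26.1 CPM in BURP-16SR and at 0, 0 and 0.0454 CPM in BURP-19NE, where a single count was found in the 3 tumors together. In the Ba/Sq tumors its lowest, median and highest levels were 0.137, 0.828 and 9.06 CPM. All BURP-19NE tumors thus lay below all others, and in BURP-16SR replicate 2 overlapped with the Ba/Sq range, whose highest value came from the shallow BURP-25BaSq library. Snap25 was higher in BURP-16SR by 3.41 on the log2 scale (SE 0.77, adjusted p = 0.00268) and lower in BURP-19NE (adjusted p = 0.00809), and from the summed counts the Ba/Sq tumors exceeded BURP-19NE by 97.1 times, with a 95% counting interval of 17.3 to 3841.

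Syt1, the calcium sensor synaptotagmin 1, went the other way. It was at 1.89, 1.37 and 3.22 CPM in BURP-19NE and at 0, 0.0773 and 0.0699 CPM in BURP-16SR, with a median of 0.16 CPM and a highest level of 1.74 CPM in the Ba/Sq tumors. It rose in BURP-19NE by 2.62 on the log2 scale (SE 0.75, adjusted p = 0.0101), a call that was lost without replicate 3, where the change was 2.18. The highest Ba/Sq levels were those of BURP-12BaSq, and without that line the change was 3.39. Between the 2 lines Syt1 was lower in BURP-16SR, by 5.14 on the log2 scale (SE 0.70, adjusted p = 0.00311). A tumor of BURP-12BaSq was thus above replicate 2 of BURP-19NE. The summed counts of the 2 lines gave a ratio of 42.8 with a 95% counting interval of 11.6 to 357.

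Rab3a, a small GTPase of synaptic vesicles, was at 6.44, 4.95 and 13.5 CPM in BURP-16SR and at 2.65, 3.05 and 2.31 CPM in BURP-19NE. The Ba/Sq tumors ran from 1.01 to 4.47 CPM with a median of 3.2 CPM, below all BURP-16SR tumors. It rose in BURP-16SR by 1.58 on the log2 scale (SE 0.33, adjusted p = 0.00127), and without replicate 3 the change was 0.97 and the call was lost. Stx1a, the partner syntaxin, was on in every line and was called in neither BURP-19NE (adjusted p = 0.801) nor BURP-16SR (adjusted p = 0.0992). Cplx2, a complexin that clamps the SNARE complex, was at 9.46, 9.32 and 10.5 CPM in BURP-19NE and was not called there (adjusted p = 0.187). The highest Ba/Sq level was 13.2 CPM, in BURP-12BaSq. Rab3c had at most 8 counts in any tumor.

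The genes of the other antigens of neuroendocrine tumors were called in 1 line each. Ncam1, whose product CD56 is a cell adhesion molecule of nerve and muscle, lies on chromosome 9 from 49502136 to 49798925. It was at 358, 321 and 245 CPM in BURP-19NE, above the Ba/Sq range of 2.52 to 104 CPM with a median of 30.8 CPM, and rose by 2.96 on the log2 scale (SE 0.62, adjusted p = 9.71e-04). In BURP-16SR it was at 12.3, 80.2 and 1.89 CPM and was not called (adjusted p = 0.866), nor was it between BURP-16SR and BURP-19NE (log2 fold change -3.17, adjusted p = 0.0755). Skeletal muscle also makes CD56, and the summed level of 8 muscle markers was 616 CPM in replicate 1 of BURP-19NE and 8.03 CPM or less in its other tumors, while in BURP-16SR replicate 2 was the highest and the others were at 2.45 CPM or less. In the Ba/Sq tumors that sum ran from 0.274 to 41.7 CPM, and no muscle marker stayed at 3 counts or fewer in any of the 3 groups. Without replicate 1 of BURP-19NE the call on Ncam1 held, and its level in the tumors with few muscle counts was 321 and 245 CPM. Of 8 Schwann cell markers, Sox10, Cdh19 and Foxd3 had at most 3 counts in every BURP-19NE tumor, and the summed level was 18.9 to 25.9 CPM in BURP-19NE, 19.6 to 25.4 CPM in BURP-16SR and 70.3 to 376 CPM in the Ba/Sq tumors, where Erbb3 led. The part of either cell type in the level of Ncam1 was not tested in BURP-19NE or in BURP-16SR.

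Eno2, the neuron-specific enolase, was at 11.9, 9.66 and 26.2 CPM in BURP-16SR, above every Ba/Sq tumor (0.801 to 4.97 CPM, median 2.6 CPM). It rose by 2.70 on the log2 scale (SE 0.34, adjusted p = 4.95e-06), and by 2.07 without replicate 3. In BURP-19NE it was at 1.98, 3.48 and 2.63 CPM and was not called (adjusted p = 0.871). Uchl1, a ubiquitin hydrolase abundant in neurons and known as PGP9.5, was at 12, 4.64 and 17.8 CPM in BURP-16SR, where it rose by 3.53 on the log2 scale (SE 0.67, adjusted p = 5.12e-04). Only replicate 3 of BURP-18BaSq, at 6.14 CPM, reached into that range among the Ba/Sq tumors, whose median was 0.801 CPM. In BURP-19NE it was at 1.01, 2.74 and 1.13 CPM. Between the 2 lines Rab3a, Eno2 and Uchl1 were called higher in BURP-16SR (adjusted p of 0.019, 0.00602 and 0.0134), but the call on Rab3a was lost without any 1 of the BURP-19NE tumors and that on Uchl1 without replicate 1 or 3.

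The 3 BURP-16SR tumors were not alike. Of the 17 members that were on in this line, replicate 3 had the highest level of 10 (Snap25, Rab3a, Eno2, Uchl1, Gap43, Map2, Nrxn3, Grik2, Cacna1b and Trpa1) and the lowest of 6 (Stx1a, Cplx2, Ncam1, Tubb3, Tubb2b and Nlgn2). The summed level of 6 fibroblast markers was 462 CPM in that tumor against 5842 and 15506 CPM in replicates 1 and 2, and 6 B and plasma cell markers summed to 1.4 CPM against 241 and 28.5 CPM. In BURP-19NE the fibroblast markers summed to between 1163 and 1801 CPM and in the Ba/Sq tumors to between 156 and 7715 CPM. None of these fibroblast markers stayed at 3 counts or fewer in any group, and their part in the results was not tested.

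**Figure D4:**
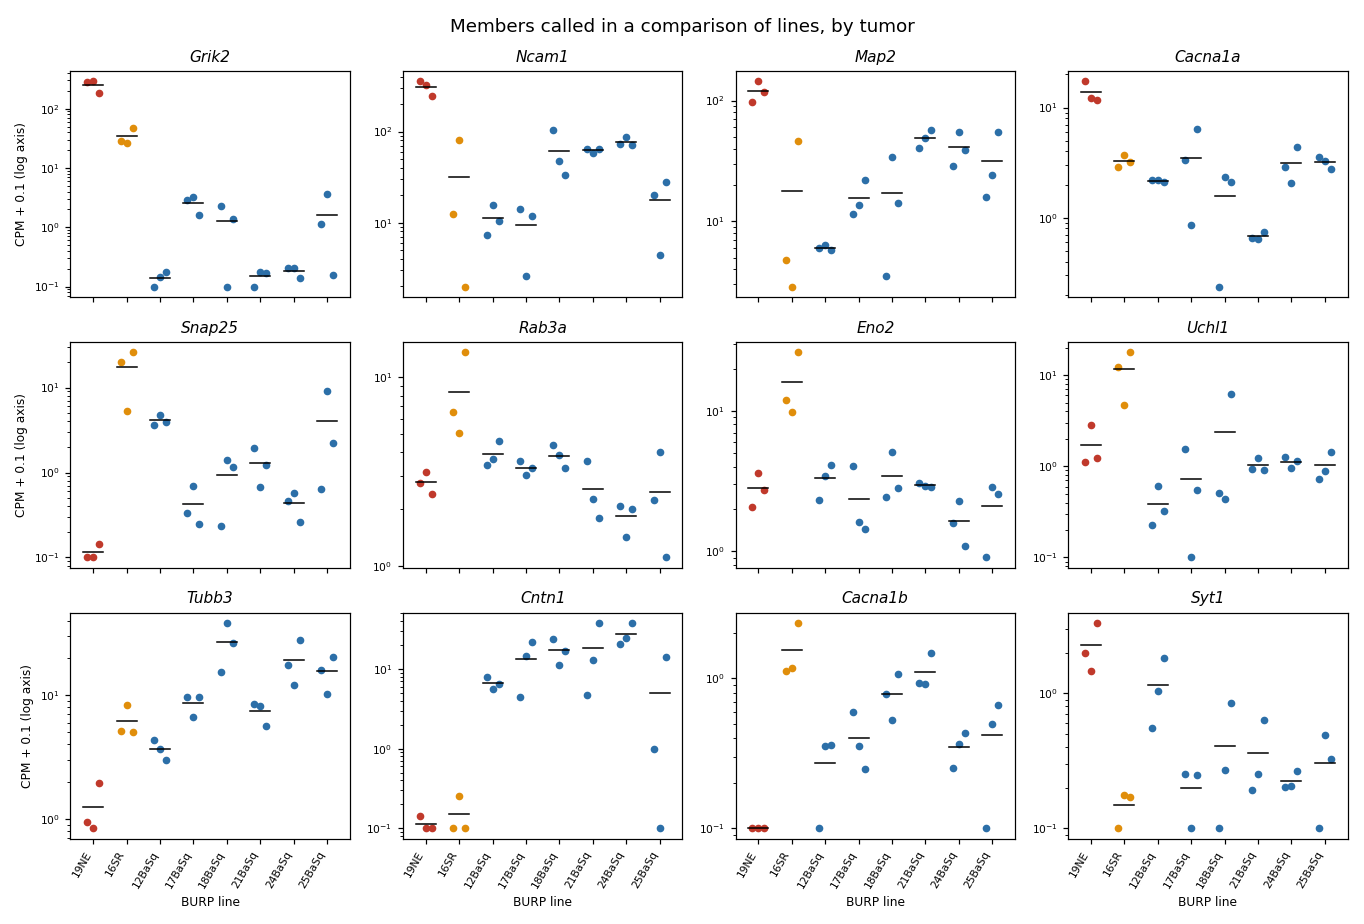
CPM plus 0.1 on a log axis in each tumor (points) with the mean of each line (bars) for 12 members that were called in at least 1 comparison of lines, with BURP-19NE in red, BURP-16SR in orange and Ba/Sq lines in blue. Grik2 is above every Ba/Sq tumor in BURP-19NE and BURP-16SR, Snap25, Eno2 and Uchl1 are high in BURP-16SR, and Cntn1 is near 0 in both.

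In the cytoskeletal genes BURP-19NE combined high RNA of Map2 with low RNA of Tubb3 and Stmn2, while Tubb2b and Gap43 were not called. Map2, the microtubule protein of dendrites, was at 96.5, 145 and 117 CPM in BURP-19NE, above all Ba/Sq tumors (3.43 to 56.7 CPM, median 22.9 CPM), and rose by 2.17 on the log2 scale (SE 0.56, adjusted p = 0.00487). Its BURP-16SR levels were 4.66, 2.78 and 45.8 CPM, so that 1 tumor stood apart. Tubb3, the class III beta-tubulin of neurons, was at 0.841, 0.737 and 1.86 CPM in BURP-19NE, below all Ba/Sq tumors (2.88 to 38.4 CPM, median 9.92 CPM). It fell by 3.53 on the log2 scale (SE 0.79, adjusted p = 0.00164). In BURP-16SR it was at 5.08, 8.19 and 4.96 CPM, within the Ba/Sq range. Reads of Tubb3 and Tubb2b can be divided between tubulin genes of like sequence, so their levels are uncertain to that extent.

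Stmn2, a stathmin of growing axons, was at 0.126, 0.0527 and 0.227 CPM in BURP-19NE against a Ba/Sq median of 1.95 CPM and a range of 0 to 20.7 CPM. It fell by 4.98 on the log2 scale (SE 1.79, adjusted p = 0.0357), but the call was lost when any of the 3 BURP-19NE tumors was left out, and the change was 3.83 without BURP-21BaSq, the line with the highest levels. Gap43, the growth cone protein, was at 7.11, 12.9 and 14.6 CPM in BURP-19NE and at 4.83, 3.32 and 17.3 CPM in BURP-16SR. The Ba/Sq median was 1.32 CPM, yet the shallow BURP-25BaSq library was at 120.5 CPM, and no difference was found (adjusted p of 0.921 in BURP-19NE and 0.975 in BURP-16SR). Without that library the change in BURP-19NE reached 2.03 and that in BURP-16SR turned from -0.11 to 1.59. Of the 5 cytoskeletal members tested in BURP-16SR edgeR called 0, with 0 at an unadjusted p under 0.05, and DESeq2 called 1. Tubb2b was called in neither line, Dcx had at most 4 counts in any tumor, and the RNA-binding Hu proteins Elavl3 and Elavl4 had at most 12 and 3 counts.

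Of the synaptic adhesion genes, Cntn1 was near 0 in both lines. Cntn1 encodes contactin 1, an immunoglobulin protein that sits on axons, and lies on chromosome 15 from 92051165 to 92341967. It was at 0.0421, 0 and 0 CPM in BURP-19NE and at 0, 0.155 and 0 CPM in BURP-16SR, against a median of 13.4 CPM and a highest level of 37.7 CPM in the Ba/Sq tumors. All of the latter were higher except the shallow BURP-25BaSq library, which had 0 counts, and 16 of 18 were above 1 CPM. The summed counts of the Ba/Sq tumors exceeded BURP-19NE by 1007 times (95% counting interval 181 to 39790) and BURP-16SR by 303 times (84 to 2507), with adjusted p-values of 1.48e-04 and 6.88e-04.

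Nlgn2, the neuroligin of inhibitory synapses, was on everywhere, at 121, 140.3 and 101 CPM in BURP-19NE and at 76.1, 106 and 71.5 CPM in BURP-16SR. The Ba/Sq tumors ran from 8.87 to 157 CPM with a median of 31.7 CPM. It rose by 1.57 on the log2 scale in BURP-19NE (SE 0.54, adjusted p = 0.03), but the call was lost when any of the 3 BURP-19NE tumors or BURP-17BaSq, BURP-24BaSq or BURP-25BaSq was left out, and it was not called in BURP-16SR (adjusted p = 0.156). BURP-18BaSq held the highest Ba/Sq levels, and without it the change in BURP-19NE was 2.11. Nrxn2 stayed at or below 1.16 CPM and Cntnap2 at or below 0.618 CPM in all tumors.

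The remaining adhesion genes were picked for their levels, which are given as a description. Nlgn1, the neuroligin of excitatory synapses, was at 54.8, 113 and 42.3 CPM in BURP-19NE, and had at most 3 counts in each of the other 21 tumors. Nrxn3, a presynaptic neurexin, was at 170.2, 139.8 and 173 CPM in BURP-16SR and had 0 counts in all BURP-19NE tumors, so that BURP-16SR was at least 3480-fold higher than the floor of 3 counts over that line. In the Ba/Sq tumors Nrxn3 had at most 6 counts except in replicate 1 of BURP-18BaSq, where 186 counts gave 25.5 CPM. Nlgn1 and Nrxn3 were thus high in different lines, which is the contrast by which they were picked.

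Among receptors and channels, the largest rise of any tested member against the Ba/Sq tumors was that of Grik2, a kainate-type glutamate receptor subunit on chromosome 10 from 49094833 to 49788766. It was at 283, 293 and 187 CPM in BURP-19NE and at 28.6, 26.8 and 47.9 CPM in BURP-16SR. In the Ba/Sq tumors its median was 0.0896 CPM and its highest level 3.54 CPM, so that both lines lay above all of them. Grik2 rose by 8.39 on the log2 scale in BURP-19NE (SE 0.87, adjusted p = 2.68e-07) and by 5.45 in BURP-16SR (SE 0.97, adjusted p = 2.96e-04), and BURP-16SR was lower than BURP-19NE by 2.80 (SE 0.28, adjusted p = 0.00138 from edgeR). When all 24 tumors entered a single fit the changes were 9.73 and 6.84. The AMPA receptor subunits Gria1 and Gria2 had at most 8 counts in any tumor, except for 63 counts of Gria2 in the shallow BURP-25BaSq library.

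The calcium channels of the presynaptic terminal differed from each other. Cacna1a, the pore of P/Q-type channels, was at 17.3, 12 and 11.7 CPM in BURP-19NE, above the Ba/Sq range of 0.137 to 6.26 CPM with a median of 2.1 CPM, and rose 6.06-fold (SE of the log2 fold change 0.51, adjusted p = 5.55e-04). In BURP-16SR it was at 2.79, 3.63 and 3.07 CPM and was not called (adjusted p = 0.551). Cacna1b, the pore of N-type channels, had 0 counts in all BURP-19NE tumors and was at 1.02, 1.08 and 2.24 CPM in BURP-16SR. The Ba/Sq tumors, at 0 to 1.38 CPM, were at least 9.88-fold higher than the floor of 3 counts over BURP-19NE (adjusted p = 0.00585), and BURP-16SR at least 32.1-fold higher (adjusted p = 0.00463). Dpp6, a partner of potassium channels, was called in neither line against the Ba/Sq tumors, and 50 of the 55 counts in BURP-16SR came from replicate 2.

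Trpa1, the irritant-gated channel of sensory neurons, and Rgs6, a regulator that shortens G protein signals, were also picked from these counts. Trpa1 was at 28.9, 31.1 and 33.3 CPM in BURP-19NE and at 13.6, 8.81 and 32.1 CPM in BURP-16SR, with 3 counts in the 18 Ba/Sq tumors together. Rgs6 was at 69.2, 93.7 and 83.7 CPM in BURP-19NE, with 10 counts in the 18 Ba/Sq tumors and 5 in the 3 BURP-16SR tumors.

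The genes beside the 4 picked members, which the choice did not use, were also tested. Against the Ba/Sq tumors 2 of 13 tested were called in BURP-19NE and 2 of 13 in BURP-16SR, beside 24.3% and 19.2% of all genes, and between these lines 4 of 12 (Tbl1xr1, Eya1, Sipa1l1 and Dcaf4, all lower in BURP-16SR), beside 23.6%. Of the nearest 2 protein-coding genes on each side, Msc (log2 fold change 2.72, adjusted p = 0.00597), beside Trpa1, and Sipa1l1 (1.17, adjusted p = 1.06e-04), 137 kb from Rgs6, were called higher in BURP-19NE against the Ba/Sq tumors. On the other side of Rgs6, Dpf3 was at 1.12 CPM in BURP-19NE and 0.105 CPM in the Ba/Sq tumors and did not pass the filter, and Dcaf4 was not called (adjusted p = 0.247). In BURP-16SR Adck1 and Dio2, the nearest genes tested beside Nrxn3, were not called (adjusted p of 0.095 and 0.613), while Tbl1xr1, beside Nlgn1, fell by 1.36 on the log2 scale (adjusted p = 0.0237) and Dcaf4 by 2.10 (adjusted p = 2.29e-04). With counts summed per line, edgeR called 0 of 14 neighbours tested in BURP-19NE, with 4 at an unadjusted p under 0.05.

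Promoter sequence was read for members that differed between the lines, because neuronal genes are held silent outside neurons by the repressor REST, whose binding element contains CAGCACC and GGACAG. RefSeq windows of 300 bases, from 250 before to 50 after a start, were at hand for 26 of the 36 members, 40 windows in all, in build GRCm38.p6. The first is that of Grik2, the tested member with the largest rise against the Ba/Sq tumors. The window of Tubb3 held both words, apart from each other, as did 567 of all 32851 windows and 1 of the 40. A start inside Nlgn1 held 1 of them, while the window at the outer end of Nlgn1, not printed, held none, and a start inside Rgs6 held none. All are written along the gene, with matches to these words on either strand in capitals.
Grik2, chr10:49788705-49789004, minus strand: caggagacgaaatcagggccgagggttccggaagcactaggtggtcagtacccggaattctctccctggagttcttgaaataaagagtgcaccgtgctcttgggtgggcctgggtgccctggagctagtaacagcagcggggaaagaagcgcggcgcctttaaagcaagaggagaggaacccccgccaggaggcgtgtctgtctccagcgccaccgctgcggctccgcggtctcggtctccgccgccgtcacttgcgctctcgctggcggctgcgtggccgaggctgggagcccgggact
Tubb3, chr8:123411303-123411602, plus strand: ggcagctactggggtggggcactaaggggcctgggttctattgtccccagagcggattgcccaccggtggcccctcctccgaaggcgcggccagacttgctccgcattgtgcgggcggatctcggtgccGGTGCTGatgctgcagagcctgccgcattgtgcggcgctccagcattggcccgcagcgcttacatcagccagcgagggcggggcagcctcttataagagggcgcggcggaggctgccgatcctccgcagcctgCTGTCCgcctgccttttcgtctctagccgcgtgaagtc
Nlgn1, chr3:26153937-26154236, minus strand: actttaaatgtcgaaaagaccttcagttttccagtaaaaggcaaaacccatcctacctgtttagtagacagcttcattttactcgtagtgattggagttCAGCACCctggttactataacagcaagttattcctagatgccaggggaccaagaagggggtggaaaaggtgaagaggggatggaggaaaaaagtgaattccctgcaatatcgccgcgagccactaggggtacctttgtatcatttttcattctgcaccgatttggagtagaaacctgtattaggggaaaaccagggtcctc
Rgs6, chr12:82617249-82617548, plus strand: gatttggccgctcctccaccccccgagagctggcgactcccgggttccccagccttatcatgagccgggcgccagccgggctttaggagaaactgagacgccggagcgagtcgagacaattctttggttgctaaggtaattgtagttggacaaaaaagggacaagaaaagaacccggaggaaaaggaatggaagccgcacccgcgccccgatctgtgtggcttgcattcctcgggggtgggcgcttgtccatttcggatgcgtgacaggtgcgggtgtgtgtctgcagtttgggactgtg

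CAGCACC was found in 7.5% of the member windows and in 7.14% of all 32851 windows of the table, and GGACAG in 20% and 22.2%. The median GC content was 56.7% in the member windows and 52.7% in all. Windows of 1 gene can overlap, so they are not independent, and a match is a word in a window and no measured site. Rest, the gene of the repressor, was at 141 ± 9.03 CPM in BURP-19NE and 100.5 ± 12.2 CPM in BURP-16SR (SD, n = 3 each) and at 111 ± 19.2 CPM in the Ba/Sq tumors (SD, n = 18), and was called in neither line (adjusted p of 0.058 and 0.752).

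The Ba/Sq lines were not uniform in these genes, nor in genes at large. Between the 6 Ba/Sq lines 12 of the 21 members that passed the filter were called, which is 37.5% of all 32. Beside this, 39.4% of all genes tested there were called (45.4% by DESeq2). Leaving out the 2 BURP-25BaSq libraries in doubt leaves 1 tumor of that line, so no count of calls is given for that fit. Stmn2 was at 19.4, 20.7 and 12.1 CPM in BURP-21BaSq and at or below 3.16 CPM in the other lines apart from the BURP-25BaSq tumor that resembled it (adjusted p = 0.0115). Snap25 and Cplx2 were highest in BURP-12BaSq among tumors of full depth, at 3.54 to 4.63 CPM and 10.7 to 13.2 CPM. Tubb3 and Nlgn2 reached 38.4 and 157 CPM in BURP-18BaSq. Grik2 was above 1 CPM in all BURP-17BaSq tumors, at 2.83, 3.19 and 1.53 CPM, and at or below 0.106 CPM in BURP-12BaSq, BURP-21BaSq and BURP-24BaSq (adjusted p = 0.00432 across the lines). The call on Chga between lines was lost without replicate 1 of BURP-17BaSq.

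A wider list of 145 other neuronal genes was tested in the same way. In BURP-19NE 36 of the 97 that passed the filter were called against the Ba/Sq tumors, 15 higher and 21 lower. That is 24.8% of the whole list, untested genes included, beside 24.3% of all genes tested. Among the largest rises without overlap were those of Bex1 (mean 15.2 CPM, 1 count in all Ba/Sq tumors), the vesicle GTPase gene Rab3b (log2 fold change 4.95), the adhesion gene Cntnap4 (4.38) and Dpysl3 (4.24), a gene of axon growth. The largest falls without overlap were those of Calcb and Calca, which encode calcitonin gene-related peptides, Chl1, Srrm4 and Dpysl5. Calcb had 0 counts in BURP-19NE and a median of 43.7 CPM in the Ba/Sq tumors, and Srrm4, a splicing factor of neurons, had 2 counts in BURP-19NE and a Ba/Sq median of 4.89 CPM.

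In BURP-16SR 41 of the 95 that passed the filter were called, 31 higher and 10 lower. That is 28.3% of all 145, untested genes included, beside 19.2% of all genes tested. Among granule genes Scg2, Vgf, Cpe and Pcsk1 were called higher, and among peptides Npy and Cck. Cck, the peptide cholecystokinin, was at 69.5 ± 25.1 CPM (SD, n = 3) against a highest Ba/Sq level of 4.16 CPM. Cntnap5a rose by 10.43 on the log2 scale, the sodium channel gene Scn9a by 7.04, Cntnap4 by 6.80 and Slitrk1 by 6.51, with adjusted p-values of at most 1.66e-04. The falls without overlap were those of L1cam (-4.09), the NMDA receptor gene Grin1 (-3.98) and Celf4 (-3.82), and L1cam and Grin1 were also called lower in BURP-19NE (-4.89 and -4.43). Between BURP-16SR and BURP-19NE 39 of the 65 that passed were called, 28 higher and 11 lower. That is 26.9% of all 145 beside 23.6% of all genes tested. Leaving out 1 BURP-16SR tumor reduced the 41 calls to between 23 and 27.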

How the data were processed

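Ribosomal RNA was removed from total RNA of 24 tumors, 3 from each of 8 lines, before sequencing. The authors aligned reads with STAR 2.6.0a to GRCm38 (GENCODE M16), and the deposited values are estimated counts per gene from RSEM 1.3.1, as named in the submitters' processing notes, without normalization. RSEM divides reads that fit several genes, 12.5% of values were not whole, and whether counting used strand is not given in the sources used here. Counts were rounded. Gene symbols, positions and exon lengths came from the GENCODE M21 annotation of GRCm38, in which 99.8% of gene identifiers were found.

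Analyses used R 4.3.3 with edgeR 4.0.16 (TMM, filterByExpr, glmQLFit, glmQLFTest). Genes were called at a Benjamini-Hochberg adjusted p under 0.05 over all genes tested and an absolute log2 fold change above 1. Tests set BURP-19NE or BURP-16SR against 18 Ba/Sq tumors and against each other, and the 6 Ba/Sq lines with an F test. On counts simulated at a dispersion of 0.1 with 200 genes changed 4-fold, between 91.5% and 99.5% were recovered in the 4 comparisons. Of the calls, 2.93% to 3.68% were false. The simulated tumors had no donor effect, and the changed genes lay above a minimum mean count. These shares therefore give no error rate for real lines or for members near the floor. Alternatives were DESeq2 1.42.0, its size factors, all 24 tumors in 1 fit, counts summed per line, no filter, a minimum of 10 counts per tumor, and each tumor or Ba/Sq line left out. Leaving out both BURP-25BaSq libraries in doubt was added after seeing the data. Intervals and floors cover counting error only. The tests against the Ba/Sq tumors had no term for line, so their p-values pool the spread within and between Ba/Sq lines. In the other 2 comparisons p-values measure the spread between tumors of a line. Each tumor entered on its own, although tumors of a line share a donor. The most alike tumors of a line differed by a chi-square of 24 per gene, so none was counted as a duplicate.

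The members, lists and tests were chosen with earlier results of these data known. Named are all 36 members, Rest, and of the neighbours of the picked members those that were called, with Dpf3, Adck1 and Dio2. Of the other neuronal genes up to 5 per direction are named, by size of change, that were called against the Ba/Sq tumors and did not overlap with them. A gene named by this rule is not reported here. Scg2, Vgf, Cpe, Pcsk1 and Npy were named after their values were seen.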

Additional observations from a re-analysis of the deposited data

How the results depend on the processing

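Depth limits statements on Chgb, Neurod1, Insm1, Dcx, Elavl4 and the AMPA receptor genes, whose counts were at or near the floor in most tumors. No paired analysis was possible because the labels give no replicate numbers that pair tumors of different lines. A minimum of 10 counts per tumor left 6 members to test in each line, of which 4 were called in BURP-19NE and 1 in BURP-16SR, and 9 and 11 other neuronal genes, with 1 neighbour in BURP-19NE. With counts summed per line, the calls were 2 and 2 members, 14 and 10 other neuronal genes, and 0 and 1 neighbours in BURP-19NE and BURP-16SR. With all 24 tumors in 1 fit, 11 members were called in BURP-16SR and 5 neighbours in BURP-19NE. Neighbours called in BURP-19NE numbered 4 without BURP-18BaSq, 4 without BURP-25BaSq and 4 with no limit on the fold change. Leaving out each tumor in turn gave 8 to 11 members in BURP-19NE, 5 to 7 in BURP-16SR, 7 to 13 between these lines and 11 to 16 among the Ba/Sq lines. For other neuronal genes the ranges were 27 to 37, 23 to 42, 28 to 49 and 47 to 64, and for neighbours 2 to 3, 1 to 3 and 3 to 6. The share of all genes called was taken only for the main, DESeq2 and line-sum fits. Shifts of the counts under the other settings are therefore no result about the members, the other neuronal genes or the neighbours.

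Members that were not called changed direction as follows, on the log2 scale and with the cause not tested. In BURP-19NE, Syp went to 0.13 with all tumors in 1 fit and 0.31 without BURP-18BaSq, Stx1a to 0.02 without BURP-18BaSq, Eno2 to -0.04 and Gap43 to -0.02 without BURP-24BaSq. Tubb2b went to 0.31 with all tumors in 1 fit, 0.24, 0.07 and 0.02 without BURP-21BaSq, BURP-24BaSq and BURP-25BaSq, and 0.10 without the libraries in doubt. In BURP-16SR, Cplx2 went to -0.10 with no filter, -0.18 with line sums, -0.13, -0.24, -0.08 and -0.24 without BURP-17BaSq, BURP-18BaSq, BURP-24BaSq and BURP-25BaSq, and -0.16 without the libraries in doubt. Ncam1 went to 0.12 with all tumors in 1 fit and 0.05 without BURP-24BaSq, and Gap43 to 2.10, 0.94, 1.72 and 1.56 with all tumors in 1 fit, with line sums, without BURP-25BaSq and without the libraries in doubt. Leaving out single tumors gave ranges of -0.26 to 0.22 for Syp, -0.15 to 0.25 for Eno2 and -0.27 to 0.27 for Tubb2b in BURP-19NE, and of -1.60 to 3.68 for Chga, -0.26 to 0.38 for Cplx2, -2.41 to 0.21 for Ncam1, -1.23 to 1.59 for Gap43 and -2.14 to 1.66 for Dpp6 in BURP-16SR. No called member changed direction, and over all alternatives 1916 of 2054 values kept direction and call, 30 lost a call, 54 gained one and 54 changed direction.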

Other observations

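Some members were much higher in 1 tumor of a line than in its other tumors. Gria2, an AMPA receptor subunit, had 63 counts in replicate 2 of BURP-25BaSq, the library with 61.9% of its counts on a ribosomal RNA gene, and at most 2 counts in each other tumor. Nrxn3 had 186 counts in replicate 1 of BURP-18BaSq and at most 1 in the other tumors of that line. Insm1 had 43 counts in replicate 3 of BURP-16SR and 14 in replicate 1 of BURP-18BaSq, and at most 7 elsewhere. Dpp6 was at 9.47 CPM in replicate 1 of BURP-18BaSq and at 1.2 and 1.12 CPM in its other tumors. Gap43 was at 18.6 CPM in replicate 3 of BURP-21BaSq and at 1.56 and 2.43 CPM in its other tumors.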
